A study of Rattus norvegicus with 17 samples.

Results

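Among the genes of fibroblast growth factor (FGF) signalling, those for 3 of the 4 FGF receptors differed from control in fetal rat gubernacula cultured with insulin-like 3 (Insl3) at 100 nM, while Fgfr3, the ligand genes Fgf7, Fgf9 and Fgf10 and the feedback genes Spry1, Spry2 and Dusp6 did not pass the test. The account covers 10 genes, namely the receptors Fgfr1, Fgfr2, Fgfr3 and Fgfr4, the ligands Fgf7, Fgf9 and Fgf10, and the feedback genes Spry1, Spry2 and Dusp6. Every probe set that the array's annotation table assigned to a single one of these genes was taken, which gave 19 of the 31099 probe sets in the file. Of the 19, 14 passed the filter on low signal and were tested, with at least 1 for each gene. The other 5 were 4 of the 5 Fgfr2 probe sets and 1 of the 2 Fgfr3 probe sets. These 5 lay at the background floor of 2.11 log2 units on all 17 arrays.

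Gubernacula, the ligaments that anchor the fetal testis to the abdominal wall, came from male fetuses of Long Evans rats at gestational day 17. Each biological replicate was 2 gubernaculum bulbs, kept on filter inserts for 24 h in medium without Insl3 and then for another 24 h without Insl3, with 10 nM Insl3 or with 100 nM Insl3. All groups shared a medium with 2% charcoal-stripped serum and an insulin, transferrin and selenium supplement, so every culture received insulin, and no group was without serum. RNA of each replicate was hybridised to 1 expression array. The comparisons used 6 control arrays, 3 arrays at 10 nM (replicates 1 to 3) and 6 arrays at 100 nM, and the submitters had set aside 10 nM replicates 4 and 5 as outliers. The cultured bulbs hold several cell types, and in such bulk samples fewer cells of a type and less RNA per cell cannot be told apart. The labels call the replicates biological, and they do not say which bulbs shared a fetus or a litter.

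FGF ligands bind receptor tyrosine kinases with heparan sulfate as a cofactor, and the activated receptors signal largely through the Ras and MAP kinase cascade. The Sprouty proteins encoded by Spry1 and Spry2, and the phosphatase encoded by Dusp6, are induced by this cascade and dampen it, so their transcripts are commonly read as markers of its activity. FGF7 and FGF10 are secreted by mesenchyme and act mainly on a splice form of FGFR2 that is typical of epithelia, whereas FGF9 acts mainly on splice forms typical of mesenchyme. Insl3 is the Leydig cell hormone that drives swelling of the gubernaculum during testis descent, and its receptor Rxfp2 can raise cyclic AMP.

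Signals are log2 values whose precision is limited by how many arrays there are. Between any pair of the 15 arrays r was 0.978 to 0.996 over 18938 tested probe sets, and 29.8% to 32.6% of the probe sets on an array lay at the floor. Within the groups, the main component of variation, with 27.3% of the variance, set replicates 3, 4 and 5 of the 100 nM and control cultures apart from replicates 1, 2 and 6. No label names a batch for this division, and it was found in these arrays, so its cause was not tested. Values within each set are given beside the results for Fgfr1, Fgfr2, Fgfr3, Fgfr4, Fgf9, Spry1, Spry2 and Dusp6. List means of measured skeletal muscle and mesenchyme markers were high on all 15 arrays, at 10.98 to 11.62 and 11.70 to 12.16 log2 units. They cover 11 of 15 muscle and 9 of 10 mesenchyme markers. Single markers were low, with Musk at 2.59 to 3.61 and Meox2 at 2.57 to 5.57. The mesenchyme marker Tcf21, at 2.11 to 2.24, was not tested. The epithelial markers Epcam, Krt5, Krt14, Cldn4 and Esrp1 stayed at 2.11 on all 15 arrays, and Cdh1 passed the filter value on 3. The keratin genes Krt8, Krt18 and Krt19 of the same list passed it on all 15, at 7.23 to 10.11, 4.15 to 7.03 and 6.72 to 9.87 log2 units, and none of the 4 measured epithelial markers was called at either dose. Of 6 mesothelium markers 4 were measured, with list means of 8.01 to 10.32 log2 units over the 15 arrays. Among them Wt1 ran from 11.67 to 12.19 and Msln from 4.73 to 9.33. None of the 4 was called at either dose. Erythroid and leukocyte markers were lower at 100 nM, as described beside the receptor results.

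Sequence upstream of the start is shown for the receptor genes that had a change at either dose and an entry in the promoter table, since these are the members on which the results turn. The sequences are from RefSeq on the GRCr8 assembly and hold the 250 bases before the gene's start, 5′ to 3′ on the gene's own strand. Capitals mark the letters of the GC box motif, GGGCGG or CCGCCC when read on the other strand.
Fgfr2, chr1:194280915-194281164, minus strand: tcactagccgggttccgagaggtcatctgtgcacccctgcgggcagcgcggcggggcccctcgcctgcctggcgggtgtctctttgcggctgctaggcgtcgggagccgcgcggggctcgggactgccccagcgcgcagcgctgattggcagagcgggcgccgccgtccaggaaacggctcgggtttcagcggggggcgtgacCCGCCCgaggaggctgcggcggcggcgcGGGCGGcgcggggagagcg
Fgfr3, chr14:81227210-81227459, minus strand: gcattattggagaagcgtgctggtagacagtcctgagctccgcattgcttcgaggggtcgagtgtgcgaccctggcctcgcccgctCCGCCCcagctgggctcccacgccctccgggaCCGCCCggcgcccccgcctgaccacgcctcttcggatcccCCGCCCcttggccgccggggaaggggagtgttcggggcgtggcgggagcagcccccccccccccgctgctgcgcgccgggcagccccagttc
Fgfr4, chr17:9481390-9481639, minus strand: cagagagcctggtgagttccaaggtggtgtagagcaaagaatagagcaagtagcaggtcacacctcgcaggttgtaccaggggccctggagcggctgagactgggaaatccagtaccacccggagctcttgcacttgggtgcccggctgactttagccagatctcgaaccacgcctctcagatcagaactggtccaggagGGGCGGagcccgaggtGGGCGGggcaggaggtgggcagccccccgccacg
Of the 10 members, 9 had an entry in the promoter table, with 10 windows in all because Spry2 has 2 start sites. The GC box motif stood in 5 of the 10 windows, those of Fgfr2, Fgfr3, Fgfr4 and Spry1 and 1 of the Spry2 windows, against 30.5% of 33469 windows of the same length. These 3 receptor windows were 76.8%, 74.4% and 62.8% G and C, where the median window held 51.2%. The full cyclic AMP response element TGACGTCA, searched on both strands, was in none of the 10 windows and in 1.59% of all windows. Its shorter core TGACG, which also lies inside the full element, was in 1 of the 10 windows, a Spry2 window, and in 18.2% of all windows. A match describes the letters only, and a missing match says only that these letters are not in this window.

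At 100 nM Insl3, Fgfr2 rose 3.20-fold and Fgfr1 rose 1.55-fold, whereas Fgfr4 fell by 0.42 log2 units. Fgfr3, the ligand genes and the feedback genes did not pass the test. Of the 14 probe sets tested, 3 were higher and 1 lower (limma, Benjamini-Hochberg adjusted p under 0.05 over 18938 probe sets). Over all tested probe sets 6.51% were called higher and 4.39% lower in this comparison. By gene, 2 of 10 rose, 1 fell and 7 did not pass, and the median log2 change of the 10 genes was 0.02, where the median of all tested probe sets was -0.0003.

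Fgfr2 encodes the receptor for which FGF7 and FGF10 are known ligands in other tissues, and it had the largest change among the members. Its measured probe set, 1373829_at, had signals of 8.16 at the lowest, 8.96 at the median and 9.83 at the highest on the 100 nM arrays, against 6.99, 7.33 and 7.66 on the control arrays. Every 100 nM array thus lay above every control array. Ranges without overlap were found for 4.96% of all tested probe sets in this comparison, and Fgfr2 was the only one of the 14 member probe sets among them. The means were 8.97 ± 0.66 at 100 nM and 7.29 ± 0.26 in control (SD, n = 6 each), a log2 change of 1.68 ± 0.25 (SE; limma adjusted p = 0.000815). An exact two-sided permutation test over the arrays gave p = 0.00216, the smallest that 6 against 6 arrays can give.

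The rise in Fgfr2 was also seen at the lower dose. At 10 nM the 3 arrays read 8.57, 8.79 and 8.61 log2 units, above the highest control array at 7.66. The log2 change against the same controls was 1.37 ± 0.30 (SE; limma adjusted p = 0.00984), or 2.59-fold. The 100 nM and 10 nM groups differed by 0.31 log2 units with a 95% interval of -0.34 to 0.96 (limma adjusted p = 0.762), so a difference between the doses was not detectable with these arrays. The 4 other Fgfr2 probe sets gave no reading at either dose, and this result therefore rests on 1 probe set.

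The size of the Fgfr2 rise was not the same in the 2 sets of replicates. At 100 nM, replicates 3, 4 and 5 read 9.83, 9.55 and 9.08, and replicates 1, 2 and 6 read 8.33, 8.85 and 8.16, with no overlap between the sets. The control arrays of the 2 sets overlapped, with means of 7.23 for replicates 3, 4 and 5 and 7.34 for replicates 1, 2 and 6. The change within replicates 3, 4 and 5 was 2.25 (limma adjusted p = 0.0105), and within replicates 1, 2 and 6 it was 1.10 (adjusted p = 0.0889). The SD of Fgfr2 among the 100 nM arrays was 2.58 times that among the control arrays.

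Fgfr1, the receptor most widely found in mesenchyme, rose by a smaller amount on both of its probe sets. For 1372447_at the 100 nM arrays had a lowest value of 10.68, a median of 11.02 and a highest of 11.26, against 10.01, 10.38 and 10.70 on the control arrays. Of the 6 arrays at 100 nM, 5 lay above every control, and replicate 1 did not. The means were 11.01 ± 0.19 at 100 nM and 10.38 ± 0.25 in control (SD, n = 6 each), a log2 change of 0.63 ± 0.12 (SE; limma adjusted p = 0.00421, exact permutation p = 0.00433). The second probe set, 1387498_a_at, changed by 0.59 ± 0.14 (limma adjusted p = 0.0154), with 4 of 6 arrays at 100 nM above every control, and lost its call with all 17 arrays (adjusted p = 0.104). Within replicates 1, 2 and 6 neither probe set passed (adjusted p = 0.247 and 0.319), while both did within replicates 3, 4 and 5 (0.0139 and 0.0404). On 1372447_at the change was 0.42 within replicates 1, 2 and 6 and 0.83 within replicates 3, 4 and 5. The control arrays of the sets did not overlap on this probe set, with means of 10.58 and 10.18.

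For Fgfr1 the 3 arrays at 10 nM read 10.92, 11.06 and 10.82 on 1372447_at, all above the highest control array at 10.70. The log2 change was 0.55 ± 0.14 (SE; limma adjusted p = 0.0232). With all 17 arrays, which adds the set-aside ones, it was 0.28 and did not pass (adjusted p = 0.295), and it was also lost under the replicate block (adjusted p = 0.0516). The other probe set read 9.58, 9.65 and 9.30 at 10 nM and overlapped with the controls, which ran up to 9.65, and its change of 0.32 did not pass (adjusted p = 0.277). With all 17 arrays the change on that probe set was -0.02.

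Fgfr4, a receptor known from developing skeletal muscle, was lower at both doses. The 100 nM arrays had a lowest signal of 8.62, a median of 8.74 and a highest of 9.13 log2 units, against 9.02, 9.28 and 9.44 on the control arrays. Replicates 1 and 5 at 100 nM lay within the control range, and the other 4 lay below it. The means were 8.83 ± 0.23 at 100 nM and 9.25 ± 0.14 in control (SD, n = 6 each), and the gene fell by 0.42 ± 0.10 on the log2 scale (SE; limma adjusted p = 0.0172, exact permutation p = 0.00866). At 10 nM the arrays read 8.68, 8.87 and 8.84, all below the lowest control, and the gene fell by 0.46 ± 0.12 (limma adjusted p = 0.0297). This call at 10 nM was lost under the replicate block (adjusted p = 0.0558), without a filter (0.0581) and without control replicate 3, 4 or 5 (0.0528 to 0.0589). The call at 100 nM was lost with all 17 arrays (adjusted p = 0.064) and within either replicate set (0.318 in replicates 1, 2 and 6 and 0.0908 in replicates 3, 4 and 5).

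Skeletal muscle markers were read beside Fgfr4. Of 11 measured muscle markers, 2 were lower at 100 nM, Myod1 by -0.32 and Musk by -0.49 log2 units, and none was higher. The list mean ran from 10.98 to 11.62 on the 100 nM arrays and from 11.29 to 11.52 on the control arrays. At 10 nM only Musk was lower, with a change of -0.51. The Musk signal was weak, at 2.59 to 3.61 log2 units over the 15 arrays, near the floor of 2.11. The part of these markers in the Fgfr4 result was not tested.

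Fgfr3, known in the mouse as a brake on bone growth, rose at 10 nM but did not pass the test at 100 nM. On 1384056_at the 3 arrays at 10 nM read 5.73, 5.92 and 6.06 log2 units, above the highest control array at 5.39. The rise of 0.73 ± 0.20 (SE) passed the test (limma adjusted p = 0.0297, exact permutation p = 0.0119, the smallest that 3 against 6 arrays can give). With all 17 arrays it was 0.53 and did not pass (adjusted p = 0.0727). The call was also lost without a filter (adjusted p = 0.0677) and with only the 2 groups compared (0.055). It was lost as well with cRNA yield as a covariate (0.0548) and within replicates 1, 2 and 6 (0.351). At 100 nM the arrays had a lowest value of 5.27, a median of 5.56 and a highest of 5.97, against 4.48, 5.27 and 5.39 on the control arrays. The change of 0.44 at 100 nM, with a 95% interval of 0.09 to 0.79, did not pass (limma adjusted p = 0.0999). Of the 6 arrays at 100 nM, 4 lay above every control. Control replicate 5, at 4.48, stood apart from the next control array at 5.27. The change at 100 nM was 0.68 within replicates 3, 4 and 5 and 0.20 within replicates 1, 2 and 6. Neither passed (limma adjusted p = 0.163 and 0.621). The control arrays of the sets did not overlap, with means of 5.01 and 5.34.

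**Figure D1:**
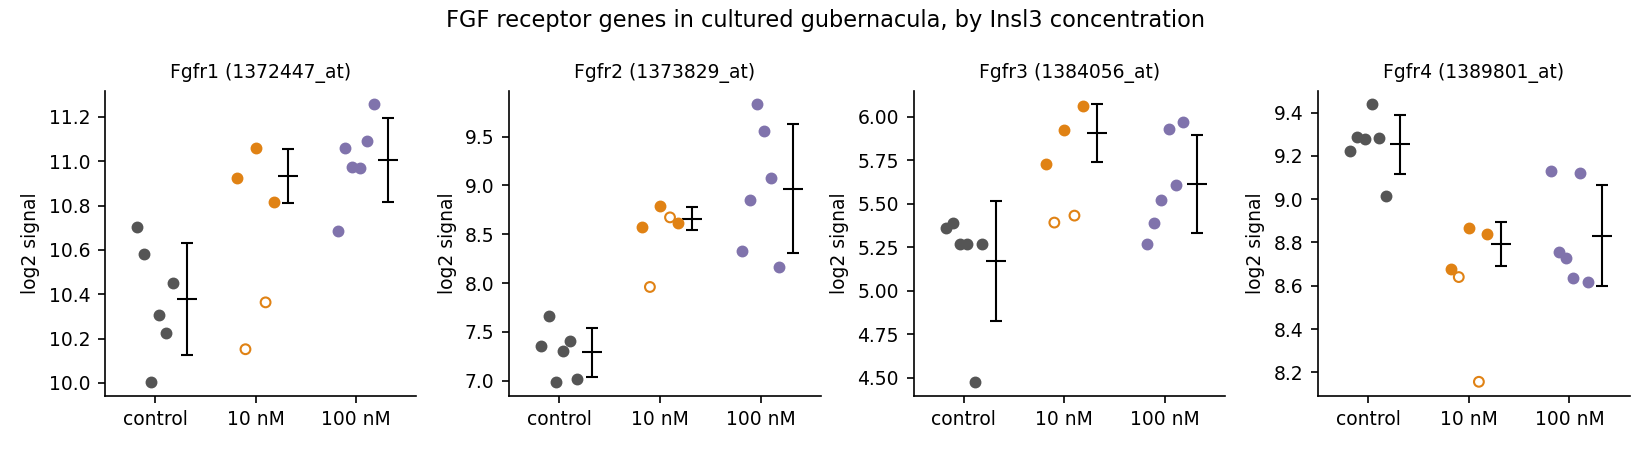
Log2 signal of the measured probe set that stands for each FGF receptor gene (vertical axis, scaled per panel), by Insl3 concentration (horizontal axis). Points are arrays, open circles the 2 set-aside 10 nM arrays, and bars the mean with SD of 6, 3 and 6 arrays. For Fgfr2 all 100 nM arrays lie at 8.16 or above, over every control array, and for Fgfr4 the 10 nM arrays lie below every control array.

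Of the 14 member probe sets, 3 were called higher and 1 lower at 10 nM against control, all of them receptor probe sets. Over all tested probe sets 4.88% were called higher and 5.70% lower. Ranges at 10 nM and in control did not overlap for 5 of the 14, where 17.0% of all tested probe sets had no overlap in this comparison of 3 with 6 arrays. The median log2 change of the 10 genes was -0.17, and that of all tested probe sets was 0.03. The comparisons of both doses use the same 6 control arrays, so they are not separate evidence. Leaving out any 1 of the 3 arrays at 10 nM left Fgfr2 as the only member called, with adjusted p of 0.055 to 0.110 for Fgfr1, 0.0557 to 0.142 for Fgfr3 and 0.0642 to 0.135 for Fgfr4.

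Blood cell markers also differed between the 100 nM and control groups. Of 8 measured erythroid markers 6 were lower at 100 nM, and their mean ran from 5.07 to 7.37 log2 units at 100 nM and from 7.08 to 9.31 in control. Of 9 measured leukocyte markers 7 were lower, with list means of 7.35 to 8.93 at 100 nM and 9.16 to 10.27 in control. At 10 nM none of either list was called. The defining markers Rhag of red cells and Cd163 of macrophages were at the floor on all 15 arrays.

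With the erythroid mean of each array as a covariate, Fgfr2 kept its call at 100 nM with a log2 change of 1.97 (limma adjusted p = 0.0188). Fgfr1 then changed by 0.40 and Fgfr4 by -0.49, and neither passed (adjusted p = 0.232 and 0.124). Calls over all probe sets fell from 2065 to 647 in this fit. The erythroid mean itself differed between these groups with little overlap, so this fit cannot separate its part from that of the dose. At 10 nM the receptor genes kept their calls in this fit. The limma adjusted p was 0.0295 for Fgfr1, 0.0100 for Fgfr2, 0.0435 for Fgfr3 and 0.0347 for Fgfr4. Of 5 measured endothelial markers, Kdr (0.94) and Cldn5 (2.83) were higher at 100 nM and none was lower. The endothelial list mean ran from 6.87 to 7.55 at 100 nM and from 6.34 to 6.61 in control. The median change of the 5 markers was only 0.08, and 3 of them were not called. Among these, Pecam1 (2.61 to 4.21) and Tie1 (2.18 to 2.45) were weak. Vwf was at the floor on all 15 arrays, and Tek stayed below the filter value. Of 5 measured neuron and Schwann cell markers 2 were higher at 100 nM, Ngfr (1.38) and Uchl1 (0.72), and Ngfr (1.26) was higher at 10 nM. From the same list Tubb3 (2.11 to 2.21) and Sox10 (2.11 to 2.61) lay near the floor and were not tested. Elavl4 was measured but weak (2.44 to 4.06). Of 6 smooth muscle markers none was called at 100 nM, while Myh11 (2.65) was higher and Tagln (-0.43) lower at 10 nM. Of 7 cartilage and bone markers only Sox6 was measured. It was lower at both doses (-0.55 at 100 nM and -1.27 at 10 nM). Acan of the same list was at the floor on all 15 arrays, and Col2a1 ran from 2.11 to 2.31 log2 units. The mesenchyme marker Prrx1 was lower at 10 nM (-1.17). The part of these markers in the receptor results was not tested.

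**Figure D2:**
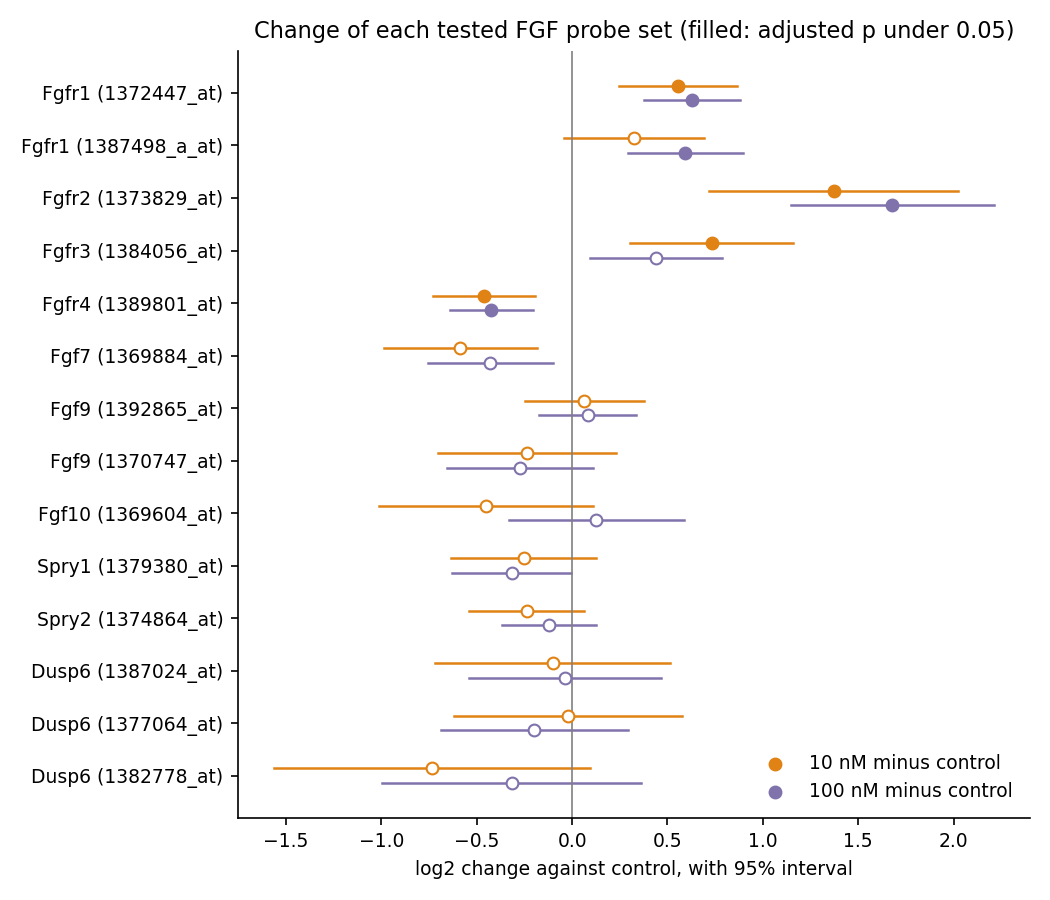
Log2 change against control (horizontal axis) of each of the 14 tested probe sets, at 10 nM and at 100 nM, with 95% intervals from limma. Filled points passed an adjusted p of 0.05. The calls at both doses are receptor probe sets, and Fgfr2 has the largest change at each dose.

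None of the 3 ligand genes passed the test at either dose, under limma with Benjamini-Hochberg adjustment. Fgf7, a mesenchymal factor known to act on neighbouring epithelia, came closest. Its 100 nM arrays had a lowest signal of 5.26, a median of 5.33 and a highest of 5.74 log2 units, against 5.45, 5.77 and 6.35 on the control arrays. Of the 6 arrays at 100 nM, 4 lay below every control, and the change was -0.43 ± 0.15 (SE; limma adjusted p = 0.0896, exact permutation p = 0.0281). At 10 nM the arrays read 5.27, 5.06 and 5.44, all below the lowest control at 5.45, with a change of -0.59 ± 0.19 (limma adjusted p = 0.0612). Without control replicate 6, the lowest control array, Fgf7 passed at 100 nM (adjusted p = 0.0399) and at 10 nM (adjusted p = 0.0281). At 10 nM it also passed with all 17 arrays (0.0166), with arrays centred on their medians (0.0443), with the erythroid covariate (0.0431) and without control replicate 3 (0.0428).

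Fgf9, known as a ligand of mesenchymal receptor forms, did not pass the test on 1392865_at. Its means were 7.98 ± 0.17 log2 units at 100 nM and 7.90 ± 0.28 in control (SD, n = 6 each), and the change of 0.08 had a 95% interval of -0.17 to 0.33. At 10 nM the arrays read 7.97, 7.89 and 8.03, all within the control range of 7.64 to 8.40. The change at 100 nM was 0.35 within replicates 3, 4 and 5 and -0.19 within replicates 1, 2 and 6. Neither passed (limma adjusted p = 0.0691 and 0.619). The control arrays of the sets did not overlap, with means of 7.73 and 8.08. The second probe set, 1370747_at, changed by -0.27 at 100 nM and by -0.24 at 10 nM, with the opposite sign to the first, and neither passed. The direction of Fgf9 was therefore not settled by its 2 probe sets.

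Fgf10, a mesenchymal ligand needed for limb and lung budding in the mouse, gave a weak signal near the lower end of the scale. At 100 nM the arrays ran from 3.37 to 4.00 with a median of 3.54, against 2.43 to 4.19 with a median of 3.54 in control. The change was 0.13 ± 0.21 (SE; limma adjusted p = 0.755). The 10 nM arrays read 3.05, 3.02 and 3.02, within the control range only because control replicate 6 read 2.43. The change at 10 nM was -0.45 (limma adjusted p = 0.328), and without control replicate 6 it was -0.66 (adjusted p = 0.0142).

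**Figure D3:**
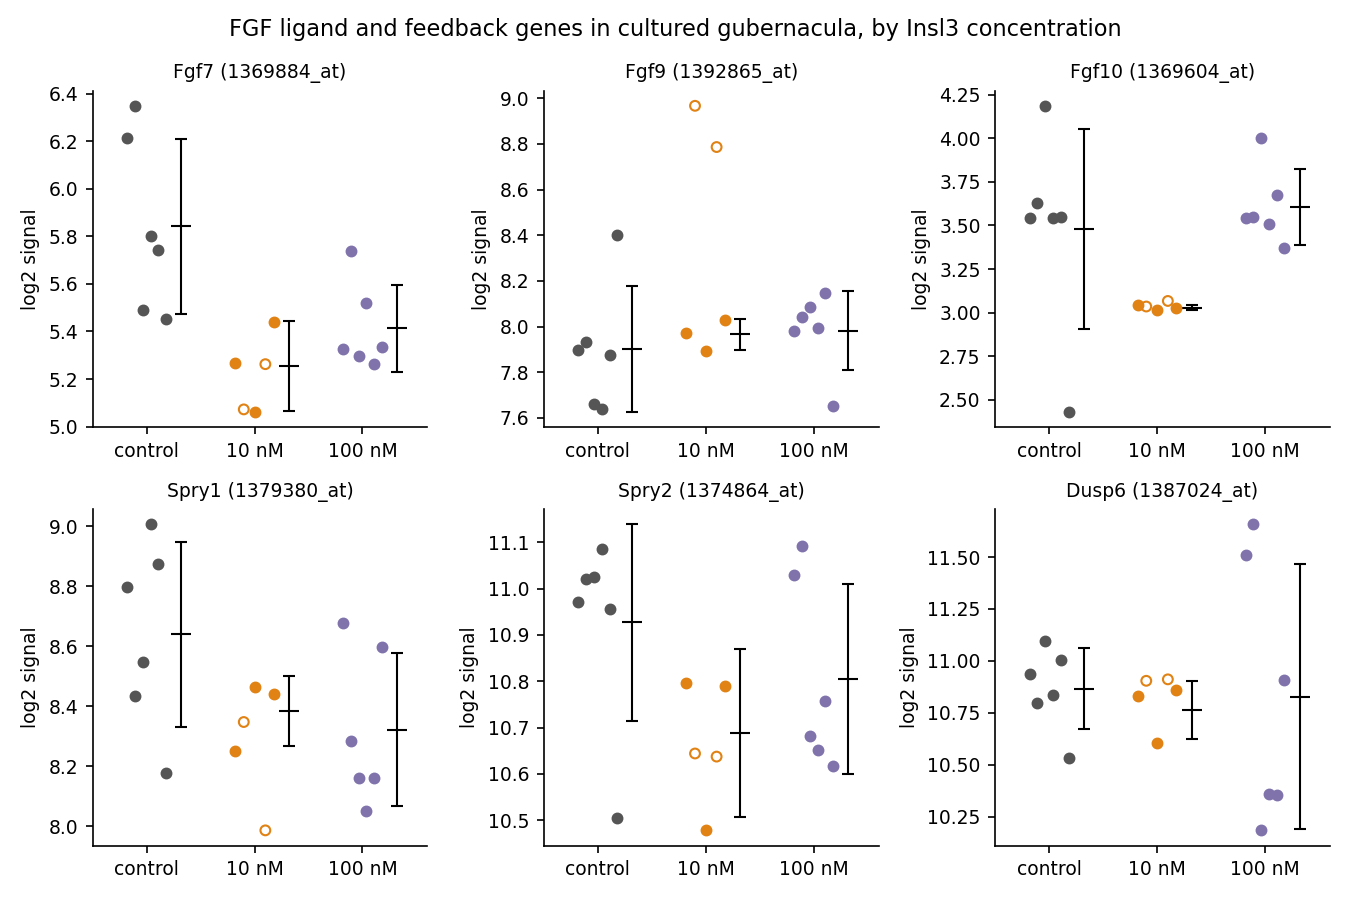
Log2 signal of the probe set that stands for each ligand and feedback gene (vertical axis, scaled per panel), by Insl3 concentration (horizontal axis). Points are arrays, open circles the 2 set-aside 10 nM arrays, and bars the mean with SD of 6, 3 and 6 arrays. For Dusp6 the 100 nM arrays run from 10.18 to 11.66 and enclose the control range of 10.53 to 11.10.

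The feedback genes, which are induced by FGF signalling and restrain it, were not called at either dose over all arrays. Spry1 had a lowest signal of 8.05, a median of 8.22 and a highest of 8.68 log2 units at 100 nM, against 8.18, 8.67 and 9.01 in control. Its change was -0.32 ± 0.14 (SE; limma adjusted p = 0.184, exact permutation p = 0.0844), and 3 of the 6 arrays at 100 nM lay below every control. Spry2 ran from 10.62 to 11.09 with a median of 10.72 at 100 nM, against 10.50 to 11.09 with a median of 11.00 in control, a change of -0.12 ± 0.11 (adjusted p = 0.541). At 10 nM Spry1 changed by -0.25 and Spry2 by -0.24, and neither passed (adjusted p = 0.425 and 0.331).

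Dusp6, which encodes a phosphatase specific for the MAP kinases ERK1 and ERK2, had close means but unequal spread on 2 of its 3 probe sets. On 1387024_at the means were 10.83 ± 0.64 log2 units at 100 nM and 10.87 ± 0.20 in control (SD, n = 6 each), a change of -0.04 with a 95% interval of -0.54 to 0.46. Of the 6 arrays at 100 nM, 2 lay above and 3 lay below every control array. The SD at 100 nM was 3.24 times the control SD for this probe set, 4.15 times for 1377064_at and 0.91 times for 1382778_at. At 10 nM the 3 probe sets changed by -0.10, -0.02 and -0.73, and none passed.

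The 100 nM values of Dusp6 separated by replicate set. On 1387024_at replicates 3, 4 and 5 read 10.18, 10.36 and 10.35, and replicates 1, 2 and 6 read 11.51, 11.66 and 10.91. Against the controls of the same sets, Dusp6 changed by -0.68, -0.86 and -1.41 within replicates 3, 4 and 5 on 1387024_at, 1377064_at and 1382778_at. Within replicates 1, 2 and 6 the changes had the other sign, 0.60, 0.46 and 0.78. On 1382778_at and 1377064_at the control arrays of the sets did not overlap either, with means of 8.83 and 10.71 for replicates 3, 4 and 5 and of 7.63 and 10.49 for replicates 1, 2 and 6.

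The Sprouty genes also differed by set, to a lesser degree. Spry1 changed by -0.68 within replicates 3, 4 and 5 and by 0.05 within replicates 1, 2 and 6, and Spry2 by -0.32 and 0.08. In fits of replicates 3, 4 and 5 alone, 8 of the 14 member probe sets were called, 3 higher and 5 lower. The 5 lower were Spry1 (limma adjusted p = 0.0395), Spry2 (0.0344) and the 3 Dusp6 probe sets (0.0191, 0.0143 and 0.0112). Over all tested probe sets 5.79% were called higher and 3.14% lower in that set. In replicates 1, 2 and 6 none of the 14 was called by limma, 5 had an unadjusted p under 0.05, and 0.760% of all tested probe sets were called higher and 0.296% lower.

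These counts describe sets of 3 arrays a group that were found in the same arrays, and the difference between the sets was not tested. Of the 14 member probe sets, 5 had no overlap between replicates 3, 4 and 5 and replicates 1, 2 and 6 at 100 nM, where 21.3% of all tested probe sets had none. In control 5 of 14 had no overlap as well, against 22.5% of all. The erythroid marker mean also differed between the sets. At 100 nM it was 7.37, 6.31 and 5.79 log2 units in replicates 3, 4 and 5 and 5.07, 5.39 and 6.24 in replicates 1, 2 and 6. In control it was 8.81, 9.31 and 8.88 in replicates 3, 4 and 5 and 7.08, 7.13 and 7.77 in replicates 1, 2 and 6. With this mean as a covariate over all arrays, Spry1 changed by -0.28 and Spry2 by -0.14 at 100 nM. Dusp6 then changed by -0.40 on 1387024_at, -0.54 on 1377064_at and -0.08 on 1382778_at, and none of these passed. The part of the erythroid mean in the difference between the sets was not tested.

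**Figure D4:**
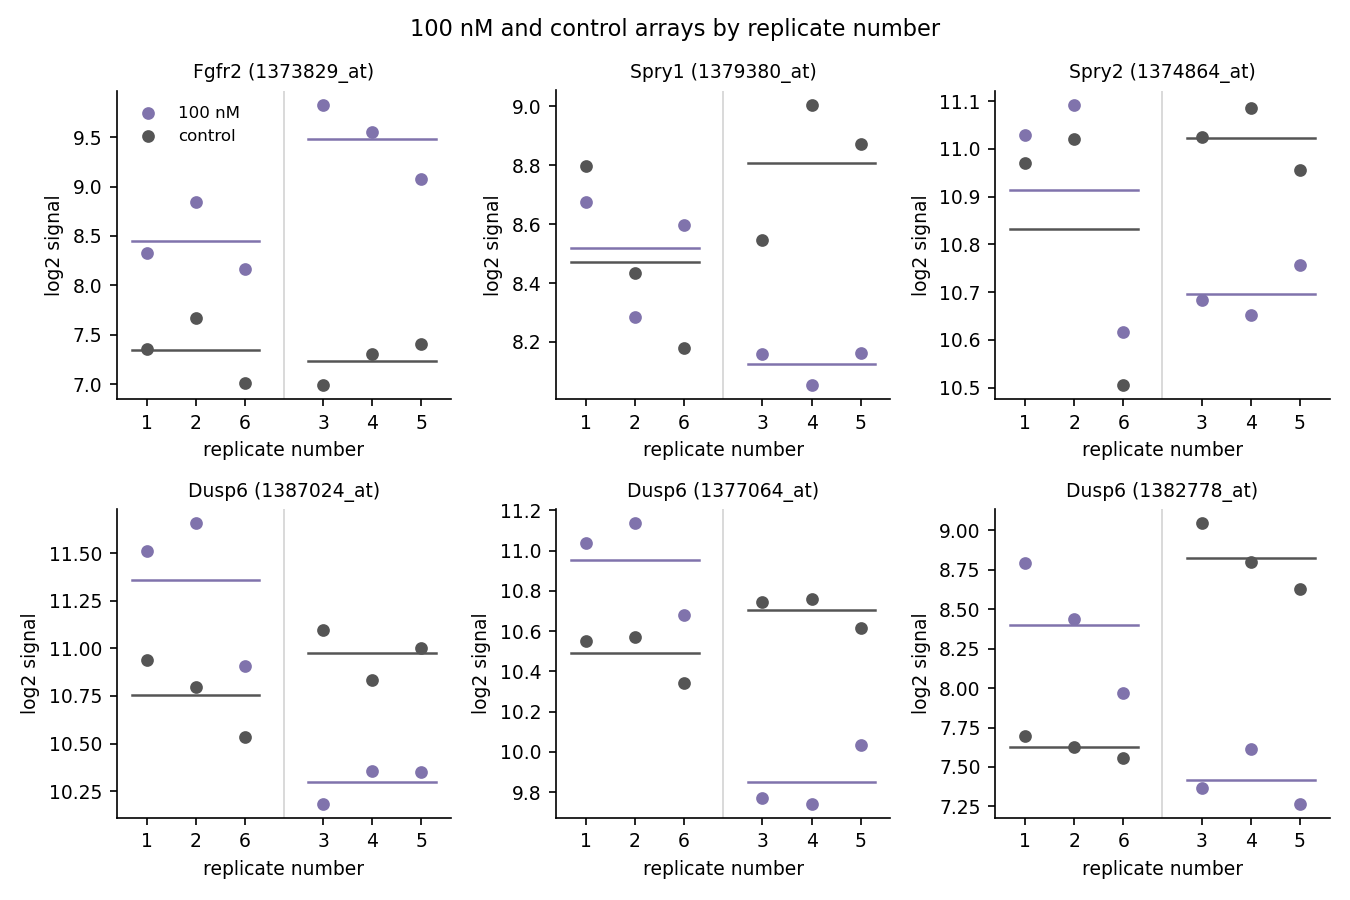
Log2 signal (vertical axis, scaled per panel) of Fgfr2, Spry1, Spry2 and the 3 Dusp6 probe sets on the 100 nM and control arrays, by replicate number (horizontal axis). Horizontal lines are means of 3 arrays. In replicates 3, 4 and 5 the 100 nM means of Spry1, Spry2 and Dusp6 lie below the control means, and in replicates 1, 2 and 6 they lie above them.

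Between 100 nM and 10 nM no member was called. Over all tested probe sets 1.24% were called higher and 0.195% lower at 100 nM than at 10 nM, and of the 14 member probe sets 1, Fgf10, had an unadjusted limma p under 0.05. The Fgf10 ranges did not overlap, at 3.37 to 4.00 on the 100 nM arrays and 3.02 to 3.05 on the 10 nM arrays, a separation found for 7.85% of all tested probe sets. Its difference of 0.58 log2 units had an adjusted p of 0.390 (limma) and an exact permutation p of 0.0119. The median difference of the 10 genes was 0.07, and that of all tested probe sets was -0.02. The 95% intervals for Fgfr1, Fgfr3 and Fgfr4 were -0.23 to 0.38, -0.72 to 0.14 and -0.23 to 0.30, so changes of these sizes between the doses were within the error.

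The pattern of Fgfr2 over the 15 arrays was most like that of 5 genes among 10656 compared. By level these were Peli2 (r = 0.956), Eif4e3 (0.951), the VEGF receptor gene Kdr (0.936), the Wnt ligand gene Wnt4 (0.936) and Adm, which encodes adrenomedullin (0.931). All 5 were higher in the mean at 100 nM than in control, by 0.53 to 1.85 log2 units. They were picked for likeness to Fgfr2, which rose at 100 nM, so this direction follows from the choice and is no separate result. By deviation from the group means, which leaves out the mean change with dose, the 5 were Tnfaip8 (0.907), B4galt6 (0.880), Hs3st2 (0.875), Zfp112 (0.859) and Acer2 (0.858). The SD of Fgfr2 was 0.66 at 100 nM, 0.26 in control and 0.12 at 10 nM, so these coefficients rest mainly on the 100 nM arrays. The signal of Hs3st2 was near the floor in control, with means of 3.06 at 100 nM and 2.12 in control, so its coefficient rests mainly on the 100 nM arrays. Zfp112 and Acer2 were also weak, with means of 2.42 and 3.03 at 100 nM and 2.63 and 2.59 in control. In the list by level, Adm was weak in control, with a mean of 3.07. The arrays fall into the 2 replicate sets described above, and these coefficients describe 15 arrays only.

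Other genes of the pathway were read from lists of ligands, co-receptors, signal transducers, feedback genes and heparan sulfate genes. Of 61 genes tested on these 5 lists, 9.84% were called at 100 nM and 8.2% at 10 nM, against 10.9% and 10.6% of all tested probe sets. Of 19 other FGF ligand genes only 5 had a measured probe set, Fgf1, Fgf12, Fgf13, Fgf18 and Fgf21, and limma called none at either dose or at an unadjusted p under 0.05. Fgf13, which encodes an intracellular member of the family, had means of 10.94 at 100 nM and 11.12 in control. The median log2 change of these 5 genes at 100 nM was -0.05. Fgf21 was weak, at 2.29 to 2.68 log2 units over the 15 arrays, near the floor of 2.11.

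Among co-receptors and binding proteins 7 of 10 genes were measured. Fgfrl1, which encodes a receptor-like protein without a kinase domain, rose by 0.38 ± 0.11 log2 units at 100 nM (SE; limma adjusted p = 0.0429), with means of 9.63 at 100 nM and 9.25 in control. Flrt3, which encodes a membrane protein known to bind FGF receptors, fell by 0.47 ± 0.10 at 100 nM (adjusted p = 0.0118) and by 0.65 ± 0.13 at 10 nM (adjusted p = 0.0048). The other 5 did not pass at 100 nM, nor did the other 6 at 10 nM. The median change at 100 nM was -0.38.

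Of 16 measured signal transducers none was called at 100 nM (limma), with 2 at an unadjusted p under 0.05 and a median change of -0.01. At 10 nM Ptpn11, which encodes the phosphatase SHP2, rose by 0.30 ± 0.07, and Pik3r1, which encodes a regulatory subunit of phosphoinositide 3-kinase, fell by 0.82 ± 0.21 (adjusted p = 0.0082 and 0.0217). Of 15 other measured feedback and target genes 2 rose at 100 nM and none fell. These were the Sprouty genes Spry4, by 0.42 ± 0.12 log2 units (adjusted p = 0.0383), and Spry3, by 0.79 ± 0.21 from a weak signal (adjusted p = 0.0269). Other genes commonly induced by FGF signalling did not pass, among them Etv5 with a change of 0.07, Etv1 with -0.05 and Egr1 with -0.34.

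Heparan sulfate chains assist the binding of FGFs to their receptors, and 18 of 19 genes for their synthesis, core proteins and sulfatases were measured. At 100 nM 2 rose, none fell and the median change was 0.14. Ext2, a chain polymerase gene, rose by 0.29 ± 0.06 (limma adjusted p = 0.0068), and Extl3 rose by 0.35 ± 0.10 (adjusted p = 0.0443). At 10 nM Extl3 rose by 0.48 ± 0.13 and Glce, an epimerase gene, by 0.30 ± 0.07 (adjusted p = 0.0257 and 0.011), with a median of 0.19.

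**Figure D5:**
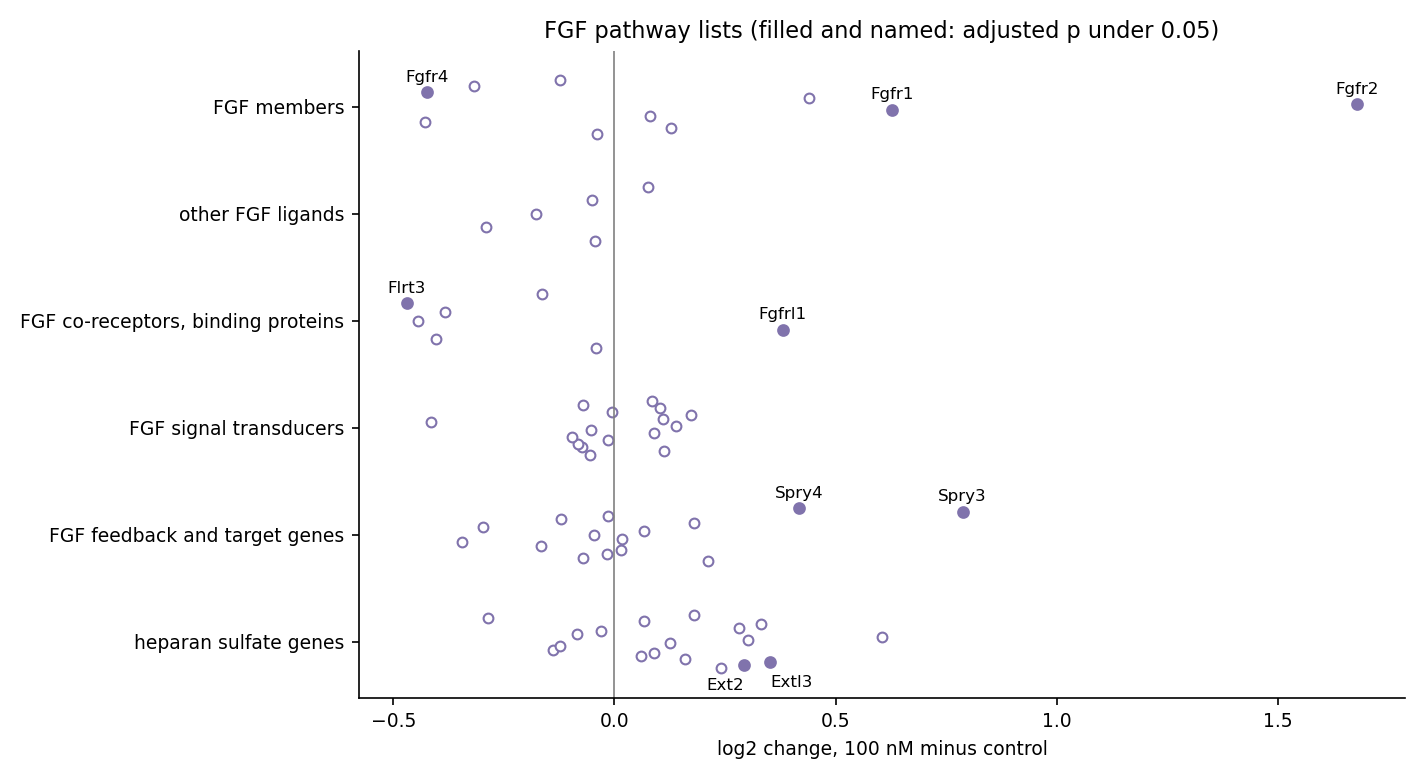
Log2 change at 100 nM minus control (horizontal axis) of each measured gene of the FGF lists (rows), with 1 point a gene. Filled and named points passed an adjusted p of 0.05 over all 18938 probe sets tested. Fgfr2 lies at 1.68, apart from the other called genes, which lie between -0.47 and 0.79.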

How the data were processed

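Expression was measured on 17 single-colour Affymetrix arrays. The deposited file holds log2 expression of each probe set, for which the authors used GCRMA, per the submitters' processing notes. GCRMA corrects background from probe sequence, normalizes arrays to each other and summarises probes. Its version, and whether set-aside arrays were normalized together with the rest, are not given in the sources read, and the log base is read from the range of the values. A change that starts at the floor is compressed.

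A probe set had to exceed 2.285 (the 40th percentile over the 15 arrays) on 3 or more arrays, and 18938 did. The 3 groups were fitted together with limma 3.58.1 in R 4.3.3, without covariates, and p-values were adjusted over all tested probe sets by the Benjamini-Hochberg method at 0.05. For genes with more than 1 probe set, that of highest mean was used. The fit was tested on simulated data. Single values were also tested by exact permutation over arrays.

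The members and lists were chosen with earlier results of these data known. All member probe sets are named, with the called genes and some uncalled genes of the other FGF lists, and the 5 genes most like Fgfr2 by each measure. Alternatives covered normalization, filter, arrays, covariates, the replicate number as a block and each array left out. Some list genes were not listed in the probe table used here.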

Additional observations from a re-analysis of the deposited data

Results flagged for a closer look

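Among the member probe sets, 28 combinations of a probe set with a group of 6 arrays were checked for an array far from its group, and 4 stood out, where chance alone flags about 1 in 20 groups. Fgfr3 (1384056_at) read 4.48 log2 units in control replicate 5, and the next lowest control read 5.27. Fgf10 read 2.43 in control replicate 6, with the next lowest control at 3.54. Spry2 read 10.50 in control replicate 6, with the next lowest control at 10.96. Fgf9 (1392865_at) read 7.65 in 100 nM replicate 6, with the next lowest 100 nM array at 7.98.

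The 2 set-aside 10 nM arrays, which enter no comparison, both lay above every control array on 4 of the 14 measured member probe sets, where 13.9% of all tested probe sets did. They both lay below every control array on 2 of the 14, those of Fgfr4 and Fgf7, where 22.7% of all did. For Fgfr2 the lower of them read 7.96 log2 units, against a highest control of 7.66. For Fgf9 the lower of them read 7.86 on 1370747_at and 8.79 on 1392865_at, against highest controls of 7.74 and 8.40. For Dusp6 on 1377064_at it read 10.81, against a highest control of 10.76. These arrays had a low yield of labelled cRNA, 25.66 and 33.68 µg, and its part in these values was not tested.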

How the results depend on the processing

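No call of a member turned to the other direction under any alternative run. Of 1139 single values recomputed, 1092 kept their direction and side of the threshold, or stayed without a call, 35 calls were lost and 12 were gained, and 46 values that were not called changed sign. Fgfr2 lost its call only within replicates 1, 2 and 6, at 100 nM (adjusted p = 0.0889) and at 10 nM (0.0515). Over all probe sets the calls numbered 2065 at 100 nM and 2004 at 10 nM, each against control, and 271 between the doses, with 4, 4 and 0 members. For 100 nM against control, all 17 arrays gave 1008 calls and 2 members, the erythroid mean as a covariate 647 and 1, and the fit within replicates 1, 2 and 6 gave 200 and 0, while within replicates 3, 4 and 5 there were 8 members. Without 1 array these counts were 1442 to 2616 and 4 to 5. For 10 nM against control, the fit within replicates 1, 2 and 6 gave 559 calls and 0 members, and 2 members were called without a filter and 2 with only the 2 groups compared. Without 1 array the counts were 1020 to 2495 and 1 to 6, the lowest without 10 nM replicate 3 (1020 and 1) and without 10 nM replicates 1 or 2 (1 member each). For 100 nM against 10 nM the count was 22 without a filter, 3 with only the 2 groups compared, 85 with cRNA yield as a covariate, 531 with the division of replicates as a term and 134 within replicates 1, 2 and 6, with 0 members in each. Without 1 array it was 3 to 619, the lowest without 10 nM replicate 3 and the highest without 100 nM replicate 5. The cause of these shifts was not tested.

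With the replicate number as a replicate block, 1781, 1708 and 429 probe sets were called, with 4, 2 and 0 members, and at 10 nM Fgfr1 and Fgfr4 lost their calls (adjusted p = 0.0516 and 0.0558). Same-numbered control and 100 nM arrays deviated together with r of 0.007 to 0.199, over 0.1 in 4 of 6 pairs, and 1 of 6 controls correlated best with its own number. The samples were therefore not treated as pairs, although the division into replicates 3, 4 and 5 and replicates 1, 2 and 6 was the same in the control and 100 nM groups.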
